A study of Mus musculus with 24 samples.

Results

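Growth factor signalling was described in mouse liver through 10 genes, taken as the rows of the count table whose symbol is Pdgfa, Pdgfb, Pdgfc, Pdgfd, Pdgfra, Pdgfrb, Hgf, Met, Vegfa or Egfr. Each symbol matched 1 of 56205 gene rows, and all 10 genes passed the filter on low counts. The livers came from 24 C57BL/6J mice kept for 20 weeks on a methionine-choline deficient (MCD) diet (12 mice) or on control diet (12 mice), and the poly(A) fraction of whole-liver RNA was read. Mice on such a diet develop steatohepatitis and scarring and serve as a model of both. The diet is described as rich in fat in the study's methods, and is called a choline-deficient high-fat diet in its results. Each diet held males and females in equal number, but no library is labelled with sex, age, litter or batch, so each diet was treated as 1 group.

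Platelet-derived growth factors (PDGF) are dimeric ligands that drive the division and migration of mesenchymal cells, in liver above all of hepatic stellate cells, which deposit collagen after injury. Hepatocyte growth factor (HGF) is made mainly by stellate and sinusoidal endothelial cells and acts on the receptor MET of hepatocytes. VEGF-A is released largely by hepatocytes and maintains the sinusoidal endothelium, and the EGF receptor is an abundant hepatocyte receptor that takes part in regeneration.

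All 4 PDGF ligand genes and both PDGF receptor genes were higher in MCD livers, by 1.85-fold (Pdgfa) to 4.62-fold (Pdgfb). Met and Vegfa were lower, at 0.651 and 0.590 of the control level. Hgf and Egfr did not pass the threshold. Calls required a false discovery rate (FDR, Benjamini-Hochberg) of at most 0.01 in edgeR's quasi-likelihood test, with a change beyond 0.5 in either direction on the log2 scale. By that rule 6 of the 10 genes were higher, where 19.2% of all 14109 genes tested were called higher, and 2 were lower, where 19.1% were called lower. The lower share was thus at the background. The median log2 fold change was 1.29 over the 10 genes and -0.10 over all genes tested.

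Promoters of 3 PDGF genes and the outer of 2 promoters of Vegfa are shown first, as examples of the sequence upstream of members that moved. They are the 250 bases before a RefSeq transcription start (GRCm38.p6), written 5′ to 3′ on the gene's strand, with matches to the searched motifs in capitals.
Pdgfc, chr3:81036166-81036415, plus strand: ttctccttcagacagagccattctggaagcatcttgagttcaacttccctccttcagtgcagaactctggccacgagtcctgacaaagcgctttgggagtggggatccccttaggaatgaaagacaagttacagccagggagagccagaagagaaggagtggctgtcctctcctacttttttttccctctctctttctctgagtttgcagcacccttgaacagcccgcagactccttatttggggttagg
Pdgfd, chr9:6168236-6168485, plus strand: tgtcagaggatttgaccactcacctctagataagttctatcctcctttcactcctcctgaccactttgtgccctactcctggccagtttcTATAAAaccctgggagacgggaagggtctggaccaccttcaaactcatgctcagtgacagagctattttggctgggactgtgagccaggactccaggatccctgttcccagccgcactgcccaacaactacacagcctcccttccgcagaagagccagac
Pdgfra, chr5:75152001-75152250, plus strand: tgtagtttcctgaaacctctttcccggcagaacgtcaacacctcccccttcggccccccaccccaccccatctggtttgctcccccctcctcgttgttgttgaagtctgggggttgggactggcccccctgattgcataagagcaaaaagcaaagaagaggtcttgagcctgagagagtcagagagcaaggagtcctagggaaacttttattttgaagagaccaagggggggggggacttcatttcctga
Vegfa, chr17:46032378-46032627, minus strand: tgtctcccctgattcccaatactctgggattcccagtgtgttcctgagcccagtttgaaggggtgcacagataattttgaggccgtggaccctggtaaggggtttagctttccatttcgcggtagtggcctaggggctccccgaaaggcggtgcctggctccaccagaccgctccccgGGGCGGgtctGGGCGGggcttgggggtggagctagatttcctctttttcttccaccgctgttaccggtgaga
The motifs were searched on both strands as TGANTCA (AP-1), GGGCGG (SP1), GCGNGGGCG (EGR1, whose letters can overlap those of SP1), ACGTG (the core of the hypoxia element) and TATAAA (the TATA box). Pdgfd held 1 TATAAA, a sequence present in 12.4% of 32851 promoter windows of that length. The Vegfa window shown held 2 GGGCGG, which 32.7% of windows held at least once. Pdgfc and Pdgfra held none of the 5 motifs. The inner Vegfa window, not shown, held 1 GGGCGG and 1 ACGTG. Among the other windows not shown, those of Pdgfa, which rose, held 1 and 2 GGGCGG. That of Met, which fell, held 3 GGGCGG, 2 ACGTG and 1 TGANTCA. The 2 ACGTG of Met are the 2 strands of 1 CACGTG. Egfr held 1 GGGCGG and both Hgf windows none of the motifs. The other motifs occur in 6.75% (AP-1), 4.70% (EGR1) and 16.6% (hypoxia core) of all windows. GC content was 50.8% for Pdgfc, 53.6% for Pdgfd, 54.4% for Pdgfra and 59.2% for Vegfa, against a median of 52.4% over all windows. A match describes letters and is not evidence of binding. Windows of 8 of the 10 genes were searched, and those of Pdgfb and Pdgfrb are not reported here.

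Total counts ran from 16388650 to 24915175 per library. Control libraries had TMM scaling factors of 0.642 to 0.973 and MCD libraries of 1.07 to 1.26. Scaling by total counts alone moved the median log2 fold change of all genes tested up by 0.37 and made 84.3% of all calls higher in place of 50.2%, so small changes are relative to the TMM scale. Control library 12 stood apart, with the lowest factor (0.642; next 0.792) and the lowest level of Pdgfra, Hgf, Met and Vegfa among controls. The member results it touches most are given with and without it. Levels are in CPM, counts scaled to the TMM-adjusted library size. P-values measure the spread between these libraries, 1 for each labelled sample.

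**Figure D1:**
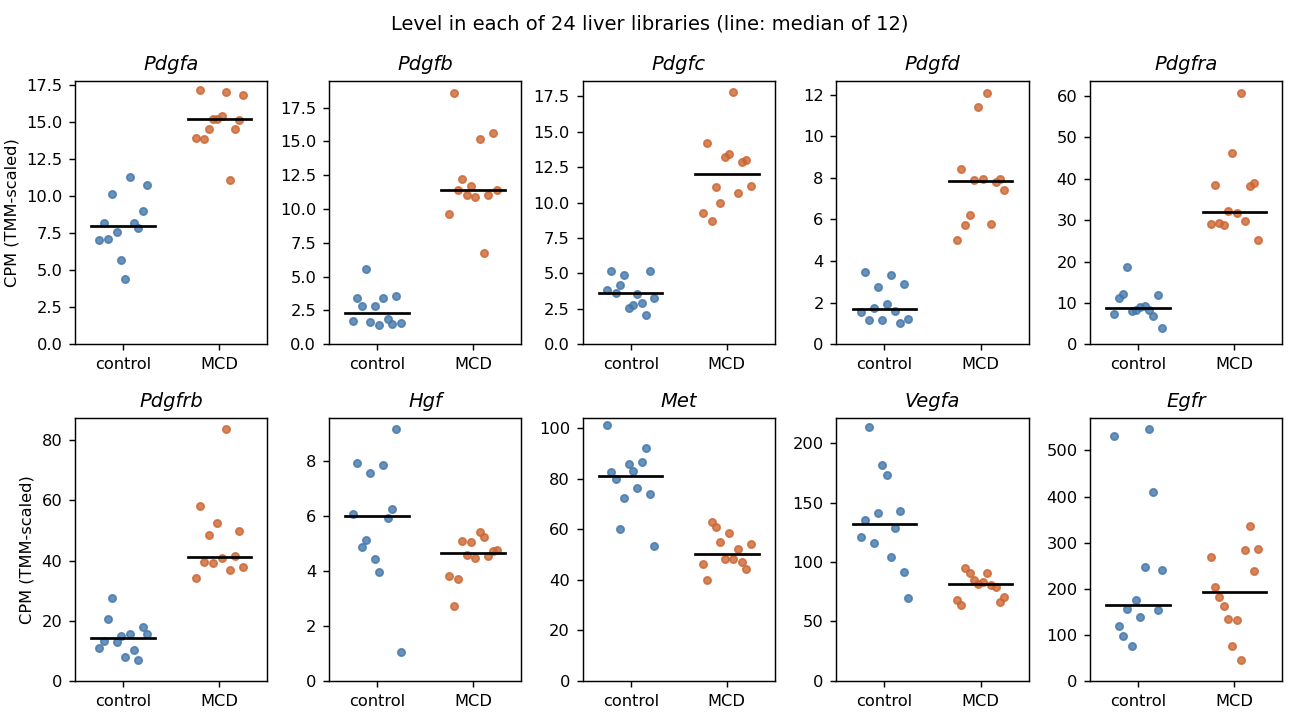
Level of each of the 10 genes in CPM (y axis, from 0, own scale for each gene) in the 12 control and 12 MCD libraries, 1 point per library, with the median as a line. For Pdgfb, Pdgfc, Pdgfd, Pdgfra and Pdgfrb all 12 MCD libraries lie above all 12 control libraries, and the Hgf value of 1.06 CPM in control library 12 lies apart.

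The PDGF ligands rose without exception. Pdgfb (chr15:79995874-80014977, minus strand, GRCm38) encodes the B chain, which binds both PDGF receptors and is the classical mitogen of stellate cells. Its level ran from 1.40 to 5.54 CPM in control livers (median 2.31) and from 6.73 to 18.6 CPM in MCD livers (median 11.4). Every MCD library lay above every control library. The log2 fold change was 2.21 (SE 0.20, 95% CI 1.79 to 2.62, edgeR FDR 7.54e-10), the largest of the 10 genes. The counts behind it were 21 to 98 per control library and 144 to 511 per MCD library.

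Pdgfc and Pdgfd encode the ligands that carry a CUB domain and must be cleaved before they bind. Pdgfc (chr3:81036416-81214040, plus strand), whose product binds mainly PDGF receptor alpha, ran from 2.08 to 5.19 CPM in control (mean 3.67 ± 1.03, SD, n = 12) and from 8.73 to 17.8 CPM in MCD livers (mean 12.1 ± 2.52, SD, n = 12). This rise came to 1.72 on the log2 scale (SE 0.14, edgeR FDR 1.36e-10). Pdgfd (chr9:6168584-6378850, plus strand), a ligand of PDGF receptor beta, had 16 to 65 counts per control library and 101 to 285 per MCD library. Its level moved from 1.04 to 3.49 CPM (median 1.67) to 5.03 to 12.1 CPM (median 7.85). On the log2 scale Pdgfd rose by 1.96 (SE 0.20, edgeR FDR 5.20e-09). The diets overlapped for neither gene.

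Pdgfa (chr5:138976014-138997370, minus strand) encodes the A chain, which binds PDGF receptor alpha. It ran from 4.37 to 11.3 CPM in control (median 7.98) and from 11.1 to 17.1 CPM in MCD livers (median 15.2). It rose least of the 4 ligands, with a log2 fold change of 0.89 (SE 0.12, 95% CI 0.65 to 1.13, edgeR FDR 2.53e-07). Here 11 of 12 MCD libraries lay above every control library, and MCD library 9 (11.1 CPM) fell just under control library 8 (11.3 CPM). The exons of Pdgfa overlap 6330403L08Rik on the opposite strand, which had at most 90 counts in a library. The study's methods name a stranded kit without tying it to the mouse libraries, and whether counting used strand is not given in the sources used here, so reads of the pair may have been split.

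The B chain gained on the A chain within libraries. The log2 ratio of Pdgfb to Pdgfa counts was -1.71 ± 0.58 in control and -0.34 ± 0.25 in MCD livers (SD, n = 12 each). All 12 MCD libraries were above every control library in this ratio. The difference was 1.37 (two-sided permutation test with 100000 resamples, p = 2e-05, the smallest these resamples can give, adjusted p = 8e-05 over 4 ratios). A ratio of counts within a library does not depend on how libraries are scaled.

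Both receptors rose with their ligands. Pdgfra (chr5:75152292-75198215, plus strand) encodes the receptor for the A, B and C chains and marks quiescent and activated mesenchymal cells. It ran from 4.01 to 18.6 CPM in control (median 8.69) and from 25.1 to 60.8 CPM in MCD livers (median 31.9), with no overlap. For Pdgfra the log2 fold change was 1.90 (SE 0.18, 95% CI 1.54 to 2.27, edgeR FDR 9.76e-10). Annotated transcripts that share exon sequence with Pdgfra had at most 3 counts in a library.

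Pdgfrb encodes the receptor for the B and D chains, through which stellate cells are driven to divide. Its level was 6.83 to 27.6 CPM in control (median 14.2) and 34.1 to 83.6 CPM in MCD livers (median 41.3), again without overlap. MCD exceeded control by 1.69 on the log2 scale (SE 0.19, 95% CI 1.31 to 2.07, edgeR FDR 1.50e-08). The log2 ratio of Pdgfra to Pdgfrb was -0.60 ± 0.53 in control and -0.39 ± 0.19 in MCD livers (SD, n = 12 each). That difference of 0.21 was within the spread (two-sided permutation test, p = 0.222, adjusted p = 0.222), and it was 0.09 without control library 12. Over the 10 genes, 5 had every MCD library above every control library, where 9.50% of all genes tested did. None of the 10 had every MCD library below every control library, where 4.88% of all genes did.

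Markers of the cells that carry these receptors moved as well. In whole-liver RNA, a change in the number of cells of a type and a change in RNA per cell cannot be told apart. Of 11 stellate and other mesenchymal markers, 6 were higher, 2 were lower and 3 did not pass. Their summed level was 414 to 901 CPM in control and 834 to 1320 CPM in MCD livers. The matrix genes Lum (log2 fold change 3.15, edgeR FDR 1.49e-11) and Col1a1 (2.88, edgeR FDR 9.41e-08) rose. Lrat, the retinol-storing enzyme of quiescent stellate cells, was lower (-0.93, edgeR FDR 3.63e-05), as was Ecm1 (-1.28, edgeR FDR 1.39e-08). None of the markers was at 0 in all libraries. The part of cell composition in the rise of Pdgfra and Pdgfrb was not tested.

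Markers of other cell types moved too. The summed level of 6 markers of monocyte-derived macrophages went from 35.0 to 108 CPM in control to 649 to 1360 CPM in MCD livers, and all 6 were higher. All 5 cholangiocyte markers were higher, with a summed level of 3.71 to 14.9 CPM in control and 41.5 to 98.1 CPM in MCD livers. Of 4 platelet markers, Pf4 was higher (2.17, edgeR FDR 2.37e-10) and Itga2b did not pass (-0.41, edgeR FDR 0.0216). The platelet genes Gp9 and Ppbp had too few counts to be tested. Of 5 lymphocyte markers, 3 were higher and 2 did not pass. Of 5 markers of resident Kupffer cells, 4 were lower, none was higher and the median log2 fold change was -1.11, with Timd4 at -4.10 (edgeR FDR 1.52e-11). Of the smooth muscle markers, Tagln was higher (1.19, edgeR FDR 7.28e-06), Myh11 was lower (-0.80, edgeR FDR 0.00361) and Cnn1 and Actg2 were not tested. The part of these cells in the rise of the ligands was not tested.

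Cleavage releases the C and D chains, and the proteases that do so were measured too. Plat, tissue plasminogen activator, which activates the C chain, rose from 1.04 ± 0.919 to 9.32 ± 2.85 CPM (SD, n = 12 each; log2 fold change 3.12, SE 0.31, edgeR FDR 3.51e-09). Plau, urokinase, which activates the D chain, rose from 3.21 ± 1.16 to 15.5 ± 2.44 CPM (2.26, SE 0.16, edgeR FDR 9.74e-12). Furin, the convertase that processes the A and B chains inside the cell, was lower by TMM scaling (-0.58, edgeR FDR 1.05e-06) and did not pass with total counts alone (-0.23). Lrp1, a co-receptor of PDGF receptor beta, did not pass (-0.29, edgeR FDR 0.0166).

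HGF and its receptor did not follow the PDGF genes. Met (chr6:17463800-17573980, plus strand) ran from 53.2 to 101 CPM in control (median 81.2) and from 40.0 to 62.9 CPM in MCD livers (median 50.2). All 12 MCD libraries lay below the control median and 7 lay below every control library, or 10 when control library 12 was left out. Its log2 fold change was -0.62 (SE 0.09, 95% CI -0.81 to -0.43, edgeR FDR 2.11e-06). Met kept its direction but not its call with upper-quartile factors (-0.47) and with total counts alone (-0.26, FDR 0.0287). Of 6 hepatocyte markers, 3 were lower and 3 did not pass. Their summed level was 71600 to 177000 CPM in control, with control library 12 the highest, and 54100 to 79300 CPM in MCD livers. The part of hepatocyte content in the fall of Met was not tested.

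Hgf (chr5:16553495-16620152, plus strand) was low in both diets, at 1.06 to 9.18 CPM in control (median 6.01) and 2.73 to 5.41 CPM in MCD livers (median 4.65). All 12 MCD libraries lay below the control median, but the ranges overlapped. The log2 fold change was -0.38 (SE 0.19, 95% CI -0.78 to 0.02, edgeR FDR 0.0903). The lowest control value of 1.06 CPM, from 14 counts, belonged to control library 12, and the next was 3.95 CPM. Without that library the log2 fold change was -0.45 with an edgeR FDR of 0.00465, which is under the FDR limit but short of the fold limit. With total counts alone Hgf stood at -0.05. Its exons overlap Gm43489 on the same strand, which had at most 21 counts in a library.

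The log2 ratio of Hgf to Met was -3.88 ± 0.70 in control and -3.51 ± 0.28 in MCD livers (SD, n = 12 each). The difference of 0.36 was within the spread (two-sided permutation test, p = 0.0988, adjusted p = 0.132), and it was 0.21 without control library 12. HGF is secreted as an inactive chain, so the genes that cut it or block the cutting matter for how much ligand can act. Of 8 genes for HGF activation and the related MST1 system, 4 were higher and 3 were lower, with a median log2 fold change of 0.17.

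The extremes of this list were St14 and Spint1 at the top and Hgfac at the bottom. St14, which encodes matriptase, rose from 1.59 ± 0.870 to 21.3 ± 7.03 CPM (SD, n = 12 each; log2 fold change 3.76, SE 0.23, edgeR FDR 1.18e-12). Spint1, the inhibitor HAI-1, rose from 1.21 ± 0.571 to 13.2 ± 4.15 CPM (3.43, SE 0.22, edgeR FDR 2.72e-12). Hgfac, the circulating HGF activator made by hepatocytes, fell from 482 ± 113 to 198 ± 23.2 CPM (-1.28, SE 0.11, edgeR FDR 3.31e-10). Spint2, the related inhibitor HAI-2, was higher (0.77, edgeR FDR 2.74e-05), and Hpn, the hepatocyte protease hepsin, did not pass (-0.43, edgeR FDR 0.00354). Tmprss6, a hepatocyte serine protease, was lower (-0.76, edgeR FDR 2.83e-08). Mst1, the hepatocyte ligand related to HGF, was lower (-0.72, edgeR FDR 5.83e-07), whereas its receptor gene Mst1r was higher (0.98, edgeR FDR 0.00455) at under 1 CPM in both diet means. With total counts alone Tmprss6 (-0.38) and Mst1 (-0.35) did not pass.

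Vegfa (chr17:46016993-46032369, minus strand) had the highest mean level per kilobase of the members. It ran from 69.7 to 214 CPM in control (median 132) and from 64.3 to 94.9 CPM in MCD livers (median 81.3). All 12 MCD libraries lay below the control median, and 3 lay below every control library, or 11 when control library 12 was left out. The log2 fold change was -0.76 (SE 0.13, 95% CI -1.03 to -0.49, edgeR FDR 1.69e-05). With total counts alone it was -0.42 (FDR 0.0209) and did not pass. The spread also narrowed, as it did for every other member. The coefficient of variation was 29.7% in control and 12.8% in MCD livers, a difference that was not tested.

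Of 5 VEGF receptor and co-receptor genes, 3 were lower and none was higher, with a median log2 fold change of -0.83. With total counts alone, Kdr (-0.79) and Flt4 (-0.51) were the 2 called lower. Kdr, the main signalling receptor on endothelium, went from 50.1 ± 11.4 to 23.1 ± 3.99 CPM (SD, n = 12 each; log2 fold change -1.12, SE 0.13, edgeR FDR 3.70e-08). Flt4, the receptor of VEGF-C and VEGF-D, was lower (-0.84, edgeR FDR 1.96e-06), and so was the co-receptor Nrp2 (-0.83, edgeR FDR 8.65e-05), which did not pass with total counts alone (-0.49). Flt1, a receptor of VEGF-A and VEGF-B, had -0.43 (edgeR FDR 0.00201) and the co-receptor Nrp1 -0.31 (edgeR FDR 0.0354), neither past the threshold. They stood at -0.08 and 0.07 with total counts alone.

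The ligand fell less than its receptor within libraries. The log2 ratio of Vegfa to Kdr was 1.42 ± 0.32 in control and 1.80 ± 0.28 in MCD livers (SD, n = 12 each), a difference of 0.38 (two-sided permutation test with 100000 resamples, p = 0.00446, adjusted p = 0.00892). This test treats the libraries as unpaired. With same-numbered libraries as blocks (exact sign-flip permutation) the difference stayed 0.38, but its adjusted p was above 0.05. All 12 MCD libraries lay above the control mean of the ratio and 6 lay above every control library. Of 7 endothelial markers, 5 were lower and 2 did not pass. Their summed level was 180 to 269 CPM in control and 111 to 175 CPM in MCD livers. The part of endothelial cell content in the fall of Kdr was not tested.

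The other VEGF ligands divided. Vegfc, a ligand of lymphatic endothelium, rose from 3.70 ± 0.591 to 6.12 ± 0.929 CPM (SD, n = 12 each; log2 fold change 0.72, SE 0.10, edgeR FDR 6.81e-07). Vegfd rose by 0.79 (edgeR FDR 0.00461). Vegfb was lower (-0.60, edgeR FDR 0.00177) by TMM scaling and did not pass with total counts alone (-0.21). Pgf, with at most 9 counts in a library, was not tested.

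Egfr (chr11:16752203-16918158, plus strand) was the most variable member. It ran from 76.7 to 546 CPM in control (median 166) and from 45.4 to 337 CPM in MCD livers (median 193). The ranges overlapped. Control libraries 1, 9 and 10 lay above every MCD library, 2 MCD libraries lay below every control library, and 7 of 12 MCD libraries lay above the control median. The log2 fold change was -0.30 (SE 0.32, 95% CI -0.97 to 0.37, edgeR FDR 0.431). With total counts alone its sign turned (0.09, FDR 0.807). The interval leaves room for a change of either sign.

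The level of Egfr moved with a sex-linked expression score, which sets Xist against the average of 4 genes of the Y chromosome, both as log2 CPM. The score fell in a band from -8.1 to -5.2 or from 10.7 to 12.5, with 6 libraries of each diet in each band. It was used as a number only, and no library was assigned a sex. In a model with diet, log2 Egfr changed by -0.0727 per unit of score (SE 0.0114, edgeR FDR 0.000103). Of the 10 genes, Egfr alone passed an FDR of 0.01 for the score, where 3.48% of all genes tested did. Vegfa came next with 0.0229 per unit (SE 0.00568, edgeR FDR 0.0117). With the score in the model the SE of the diet effect on Egfr went from 0.32 to 0.20, and the log2 fold change was -0.22 (edgeR FDR 0.357).

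**Figure D2:**
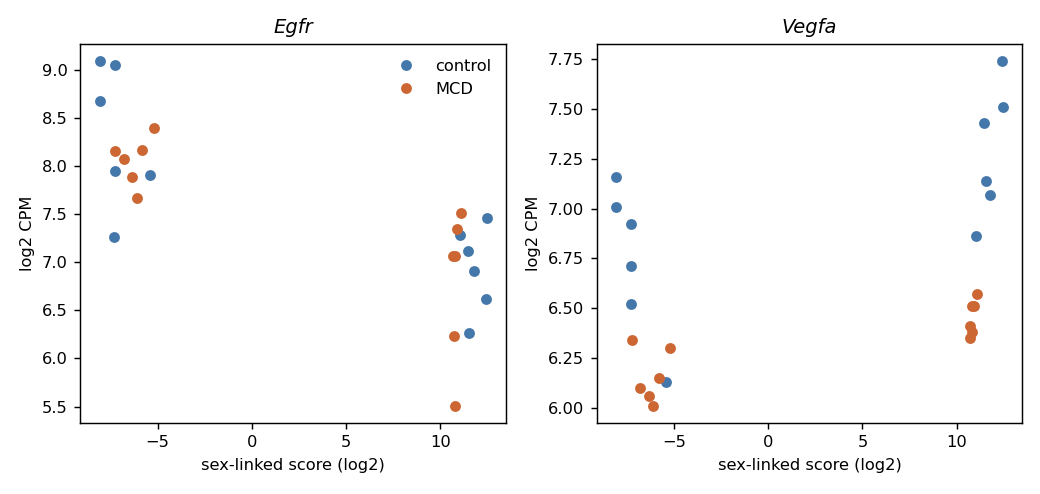
Log2 CPM of Egfr and Vegfa (y axes) against the sex-linked score (x axis, log2 units) for the 12 control and 12 MCD libraries, 1 point per library. Most libraries with a negative score lie above those with a positive score for Egfr, and within either band Vegfa is lower in most MCD libraries than in control libraries.

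The genes around Egfr moved unevenly. Of 7 ligand genes, 4 were tested. Hbegf rose from 0.726 ± 0.424 to 2.15 ± 0.612 CPM (SD, n = 12 each; log2 fold change 1.55, SE 0.25, edgeR FDR 6.31e-06) and Btc by 0.99 (edgeR FDR 0.000334). Egf, at under 1 CPM, was lower (-0.74, edgeR FDR 0.00521) by TMM scaling and did not pass with total counts alone (-0.38). Tgfa stood at -0.08 (edgeR FDR 0.518). Areg, Ereg and Epgn did not pass the filter on low counts. Areg had 0 to 2 counts per control library and 1 to 22 per MCD library. Ereg had 0 to 4 and 8 to 34, and Epgn at most 2 in any library.

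Among the other ErbB receptors and regulators, 3 of 8 were higher and 2 were lower, with a median log2 fold change of 0.01. Erbb2, the co-receptor without a ligand of its own, rose from 2.02 ± 0.644 to 6.20 ± 1.44 CPM (SD, n = 12 each; log2 fold change 1.61, SE 0.17, edgeR FDR 9.18e-09). Its exons overlap Mien1 on the opposite strand. Rhbdf1, which helps the sheddase ADAM17 to the cell surface, rose by 1.22 (edgeR FDR 3.06e-09). Erbb3 fell from 127 ± 27.5 to 71.0 ± 13.2 CPM (-0.84, SE 0.12, edgeR FDR 1.07e-06). Erbb4 was lower (-0.81, edgeR FDR 0.000785) and did not pass with total counts alone (-0.47).

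**Figure D3:**
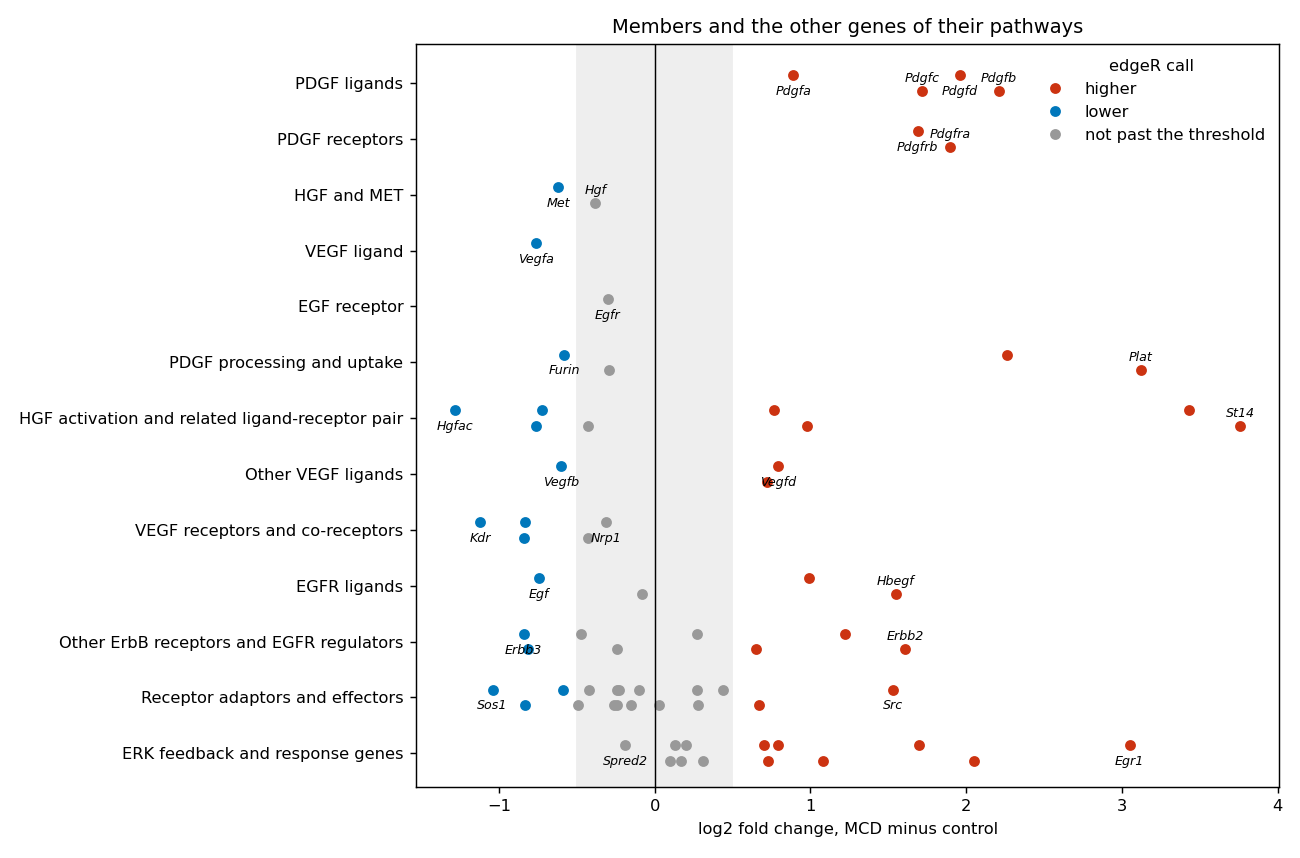
Log2 fold change (x axis, MCD minus control, TMM scaling) of the members and of the tested genes of 8 pathway lists (rows), coloured by the edgeR call, with the fold limit in grey and the members and the ends of each list named. The 6 PDGF genes lie between 0.89 and 2.21, while VEGF receptors lie at or below -0.31.

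Adaptors and effectors shared by these receptors were measured next. Of 17 tested, 2 were higher, 3 were lower and 12 did not pass, with a median of -0.23. The share that did not pass, 70.6%, was near the 61.7% of all genes tested. The split became 5 higher and 1 lower with total counts alone. Src, a kinase recruited by PDGF and EGF receptors, rose by 1.53 (edgeR FDR 2.75e-07) and Mapk3, which encodes ERK1, by 0.67 (edgeR FDR 4.18e-07). Sos1, the exchange factor that activates RAS, was lower (-1.04, edgeR FDR 2.31e-08), as was Pik3r1 (-0.83, edgeR FDR 1.40e-06), a regulatory subunit of PI3 kinase, though the latter did not pass with total counts alone (-0.49).

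Genes that respond to ERK signalling moved one way where they passed. Of 13 tested, 7 were higher, none was lower and 6 did not pass, with a median of 0.70. Egr1, an immediate early gene, rose from 8.13 ± 3.79 to 67.4 ± 47.8 CPM (SD, n = 12 each; log2 fold change 3.05, SE 0.34, edgeR FDR 2.23e-08). Etv4, an ETS factor induced by receptor tyrosine kinases, rose by 2.05 (SE 0.30, edgeR FDR 1.49e-06) from under 1 CPM. The ERK phosphatase gene Dusp6 stood at 0.13 (edgeR FDR 0.529). Over the 62 pathway genes tested, 22 were higher and 14 were lower, with a median log2 fold change of 0.07. These were 35.5% and 22.6% of those tested, beside 19.2% and 19.1% of all genes, so the lower share was near the background. Scaled by total counts alone, 27 were higher and 5 were lower, where 32.2% and 6.01% of all genes were.

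Per kilobase of the longest transcript, Vegfa led in control livers with 39.1 ± 11.6 CPM per kb (SD, n = 12), followed by Egfr at 23.6 ± 16.1 and Met at 11.6 ± 1.93. Then came Pdgfa at 3.92 ± 0.972, Pdgfrb at 2.68 ± 1.06, Hgf at 1.69 ± 0.631 and Pdgfra at 1.39 ± 0.530. Pdgfc, Pdgfb and Pdgfd closed the order at 1.04 ± 0.293, 0.885 ± 0.422 and 0.637 ± 0.284 CPM per kb. Only Met and Pdgfa, as neighbours in this order, differed by more than the sum of their SDs.

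In MCD livers Vegfa (23.1 ± 2.96 CPM per kb) and Egfr (19.2 ± 8.84) still led, and Pdgfrb reached 8.64 ± 2.51 beside Met at 7.55 ± 1.03 and Pdgfa at 7.27 ± 0.805. Pdgfra stood at 5.23 ± 1.45, Pdgfb at 4.11 ± 1.04, Pdgfc at 3.44 ± 0.715 and Pdgfd at 2.49 ± 0.685 CPM per kb. Hgf was last at 1.30 ± 0.219, and the step from Pdgfd to Hgf was the only one between neighbours that exceeded the sum of their SDs.

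**Figure D4:**
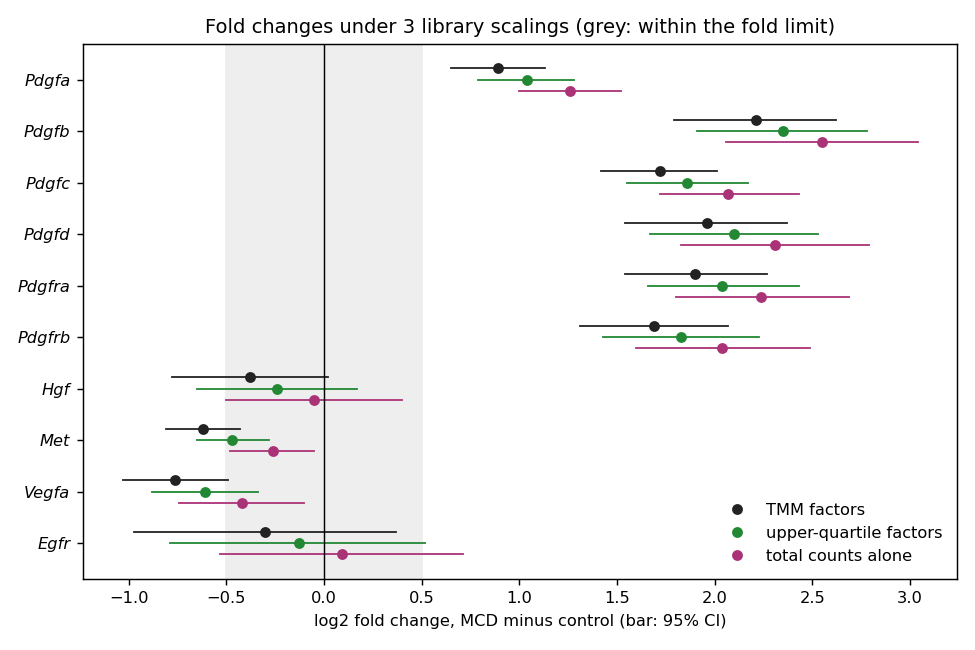
Log2 fold change (x axis, MCD minus control) with its 95% confidence interval for each of the 10 genes under TMM factors, upper-quartile factors and total counts alone. The 6 PDGF genes stay above the fold limit under each scaling, Met and Vegfa move to -0.26 and -0.42 with total counts alone, and Egfr turns to 0.09.

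Within a diet, the PDGF genes tended to vary together from liver to liver, though not every pair did so in control livers. Pearson's r of log2 CPM after the diet mean was removed, over 24 libraries, was above 0 for all 15 pairs of PDGF genes, with a median of 0.514 and a range from 0.0924 to 0.787. The highest values were those of Pdgfb with Pdgfrb (0.787) and of Pdgfc with Pdgfd (0.765). By diet, Pdgfa with Pdgfra had 0.00691 in control and 0.388 in MCD livers, and Pdgfd with Pdgfrb had 0.146 and 0.783. Pdgfb with Pdgfra (0.788 and 0.511) and with Pdgfrb (0.814 and 0.718) had the higher value in control. Pdgfra and Pdgfrb had 0.637, or 0.836 without control library 12. Without control library 12 the median of the 15 pairs was 0.522 and the lowest value rose to 0.357. Of 24 pairs of a PDGF gene with Hgf, Met, Vegfa or Egfr, 5 were above 0, with a median of -0.170. Without control library 12 these became 6 and -0.346. Met with Vegfa had 0.599 (0.418 without control library 12), and Pdgfa with Vegfa had -0.658 (-0.605 without it). By diet, Pdgfa with Vegfa had -0.74 in control and -0.22 in MCD livers. Hgf with Met had 0.486, which became 0.0812 without that library. These values are descriptions over libraries that share scaling and depth, and no test was made. The sex-linked score was not removed from them, and no r over all pairs of genes was computed for comparison.

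**Figure D5:**
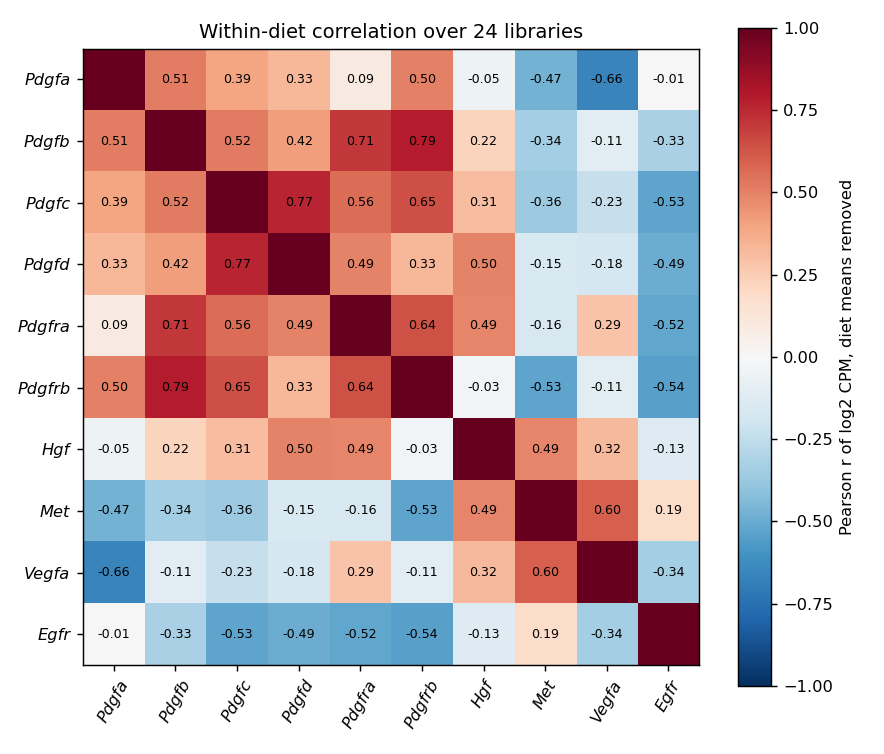
Pearson's r between the 10 genes over 24 libraries, computed on log2 CPM with each diet's mean removed, with red for positive and blue for negative values. The PDGF genes form a block of positive values from 0.0924 to 0.787.

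The same measure was used to name, for each member, the 3 genes most like it among 10111 genes (10112 for Pdgfd) with a mean of at least 5 CPM. For Pdgfrb these were Bicc1 (r = 0.940), Ltbp3 (0.928) and Col6a2 (0.922). For Pdgfra they were Tbx20 (0.918), Thbs2 (0.867) and Dkk3 (0.854).

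Pdgfb was nearest to Myof (0.870), Tmem119 (0.827) and Tspan3 (0.822). Pdgfc was nearest to Ace (0.825), Epcam (0.808) and Ddah2 (0.807), and Pdgfd to Cd9 (0.823), Tuba1a (0.798) and Tm4sf1 (0.787). Epcam stood among the cholangiocyte markers and Cd9 among the macrophage markers above. Pdgfa was nearest to Krt8 (0.801), a keratin of hepatocytes and bile ducts, then to Bok (0.795) and Capn1 (0.776).

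Met was nearest to Vps54 (0.911), Hook1 (0.895) and Reps2 (0.894), and Vegfa to Taf4 (0.938), Pcf11 (0.927) and Lpp (0.919). Egfr was nearest to Slco1a1 (0.928), a hepatocyte organic anion transporter, then to Serpina1e (0.896) and Scara5 (0.879). For Hgf the values of Rnf125 (0.911), Tstd2 (0.909) and Rasa1 (0.909) became 0.664, 0.730 and 0.783 without control library 12. For the other 9 genes the values without it lay between 0.745 and 0.940.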

How the data were processed

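Poly(A) RNA of 24 whole mouse livers had been sequenced. The authors deposited unnormalized counts of reads for each Ensembl gene, with a column for every library. The labels name STAR 2.7.3a and the build mm10. The study's methods describe a stranded library kit and, for reads aligned to the human genome, quantification with PISCES. For the mouse libraries the counter, the annotation and the use of strand are not given in the sources used here. Groups came from the sample titles. Symbols, gene positions, transcript lengths and exon overlaps were taken from GENCODE mouse release M21 (GRCm38), and promoter sequences from RefSeq (GRCm38.p6).

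Genes were filtered with filterByExpr by diet, scaled with TMM and tested with edgeR 4.0.16 (glmQLFit, glmQLFTest) in R 4.3.3, MCD against control, without covariates. SEs were obtained from the log2 fold change and the F statistic, as the size of the former over the root of the latter. Log2 CPM used a prior count of 2, and count ratios an offset of 0.5. Ratios were tested with scipy by permutation, two-sided, with adjustment over 4 ratios. The members and lists were chosen with earlier results of these data known. All 10 members are named, with up to 2 of the largest rises and falls among the called genes of each pathway list. Genes that pair a ligand with a receptor are named too, as are the 3 genes most correlated with each member. The few other genes were named after their values were seen.

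Alternatives were relative log expression and upper-quartile factors, total counts alone, no filter, at least 10 counts in every library, DESeq2 1.42.0, limma-voom (limma 3.58.1), a replicate block, the sex-linked score as covariate, calls at an FDR of 0.05 whatever the fold, calls beyond 1 on the log2 scale, and the omission of each library. On simulated counts for this comparison, edgeR recovered 177 of 187 changed genes among 13499 and called 2 unchanged ones. Rises and falls were set in equal number on few genes, so the simulation does not test the choice of scaling.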

Additional observations from a re-analysis of the deposited data

How the results depend on the processing

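The 6 PDGF genes kept direction and call under every alternative run, with 1 exception, calls beyond 1 on the log2 scale, under which Pdgfa (0.89) was not called. That limit also left out Met (-0.62) and Vegfa (-0.76), so that 0 members were called lower, with 12 pathway genes higher and 3 lower. Total counts alone gave 0 members lower (Met -0.26, Vegfa -0.42), 5 pathway genes lower, and a reversed Egfr (0.092). Upper-quartile factors gave 1 member lower, Vegfa, while Met (-0.47) did not pass. With calls at an FDR of 0.05 whatever the fold, 26 pathway genes were higher and 26 lower, where 26.5% and 37.0% of all genes were.

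Leaving out 1 library at a time changed no call of a member. Log2 fold changes then ran from 0.83 to 0.97 for Pdgfa, 2.14 to 2.36 for Pdgfb, 1.66 to 1.79 for Pdgfc, 1.89 to 2.05 for Pdgfd, 1.85 to 2.03 for Pdgfra, 1.62 to 1.81 for Pdgfrb, -0.45 to -0.28 for Hgf, -0.65 to -0.54 for Met, -0.81 to -0.64 for Vegfa and -0.39 to -0.078 for Egfr.

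Same-numbered libraries of the diets were not taken as pairs, since no label ties a number to an animal, litter or batch. The r of their deviations was above 0.1 in 8 of 12 pairs, and 2 of 12 correlated best with their own number. The median r was 0.233 for same-numbered pairs and -0.059 for others. Same-numbered libraries were thus more alike, and what they share was not tested. With the replicate block the ratio of Vegfa to Kdr kept its difference of 0.38 with an adjusted p of 0.0508 (exact sign-flip permutation), and no call of a member changed.

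The cause of these shifts was not tested. Control counts were lowest for Hgf (14 in library 12), Pdgfd and Pdgfb.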
